A study of Mus musculus with 6 samples.

Results

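Voltage-gated potassium channel subunits were measured by RNA sequencing in auditory nerve dissected from the cochleae of young adult mice, and 40 such genes were followed out of 24062 gene symbols in the table. The members were all rows whose symbol is Kcna, Kcnb, Kcnc, Kcnd, Kcnf, Kcng, Kcnh, Kcnq, Kcns or Kcnv followed by a number, a choice made on names and not on measured values. There were 3 libraries from wildtype mice and 3 from Vcan knockout mice, described as deficient in versican, a proteoglycan of the extracellular matrix. Both genotypes carry the strain label C57BL/6, and the design text names C57BL/6J for the wildtype. The labels do not say which allele was used or in which cells Vcan was altered. The nerves of both cochleae of 1 animal made up each library, so the spread between libraries joins animal, dissection and library preparation.

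A voltage-gated potassium channel is a tetramer of pore-forming subunits that opens on depolarisation and lets potassium leave the cell, which ends the action potential and sets how soon the next can follow. Kcna channels sit under the myelin beside the node of Ranvier, where they limit excitability, and fast Kcnc channels let auditory neurons fire at high rates. Most Kcnq channels carry a slow current that holds excitable cells near rest, whereas Kcnq1 with its partner Kcne1 secretes potassium from the stria vascularis into the endolymph. The Kcnf, Kcng, Kcns and Kcnv subunits form no working channel alone and modify Kcnb channels when they join them.

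The libraries held 74530860 to 92513887 counts. Vcan was counted 697, 864 and 626 times in wildtype replicates 1, 2 and 3 and 413, 249 and 248 times in knockout replicates 1, 2 and 3, so every knockout library was below every wildtype library. Its log2 fold change was −1.20, with adjusted p = 0.558 in edgeR. Neuron and Schwann cell markers were abundant in every library, with summed levels of 6138 to 12340 CPM and 7895 to 13900 CPM (counts scaled to the library size, CPM, with factors from the trimmed mean of M values, TMM). Wildtype replicate 3 stood apart: it had the lowest level for 13 of the 15 neuron markers. It had the highest level for 9 of the 10 stria vascularis markers and 10 of the 11 hair cell markers. The stria vascularis list was drawn up for stria vascularis and dark cells together. The replicate 1 libraries of both genotypes shared a group of high channel genes, described further on.

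The channel transcripts of the nerve came mainly from the Kcna and Kcnc subfamilies. Levels of different genes were compared as CPM per kilobase of annotated exon (CPM per kb). Kcna genes held 50.7% to 59.7% of the level summed over the 40 members, by library (55.7% ± 3.35, SD, n = 6), and Kcnc genes held 18.0% to 28.6% (25.0% ± 4.03, SD, n = 6). Kcns held 5.22% to 8.52% and Kcnh 5.88% to 7.93%, and these ranges overlap. This order rests on the division by length: on CPM alone the mean shares were 3.14% for Kcns, 5.35% for Kcnh and 4.08% for Kcnq. Per kilobase, Kcnq held 0.991% to 9.83%, with its highest share in wildtype replicate 3. Kcnd held 0.595% to 1.39%, and Kcnb, Kcng, Kcnf and Kcnv each stayed at or below 0.601% in every library. In bulk nerve, fewer cells of a type and less RNA per cell cannot be told apart.

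**Figure D1:**
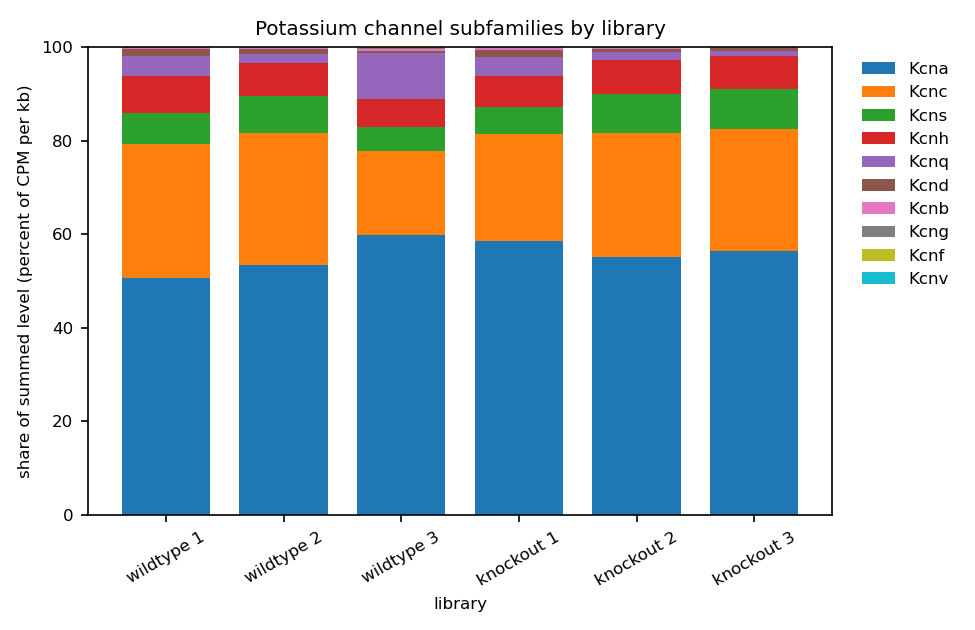
Share of each potassium channel subfamily (percent of the summed CPM per kb, stacked bars from 0 to 100) in each of the 6 libraries. Kcna and Kcnc fill most of every bar, and the Kcnq segment is widest in wildtype replicate 3 (9.83%).

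A few genes made up nearly all of the sum. The 6 highest members, among them Kcna1, Kcna2, Kcnc1, Kcnh2 and Kcns1, held 82.7% to 93.3% of the summed level by library. A further 13 members averaged 1.41 to 8.71 CPM per kb over the 6 libraries. The remaining 21 averaged at most 0.818 CPM per kb and together held 0.522% to 1.66%. Of these, Kcng3, Kcnh4, Kcnv1 and Kcnv2 had at most 10 counts in any library and did not pass the filter on low counts, which leaves 36 members tested for genotype.

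**Figure D2:**
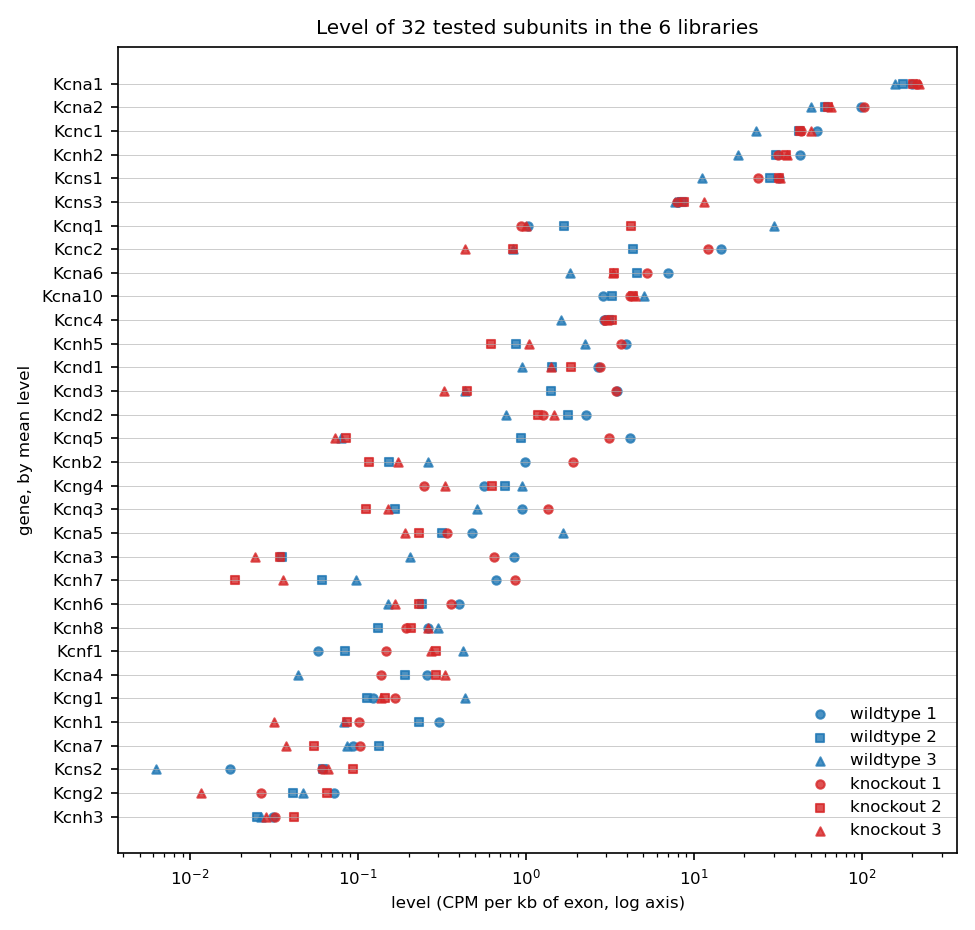
Level of 32 of the 36 tested subunits (CPM per kb of exon, log axis), ordered by mean level, with 1 point per library, coloured by genotype and shaped by replicate number. Kcna1 is the highest gene in all 6 libraries (156.6 to 218.6 CPM per kb), and the points of Kcnq1, Kcnc2 and Kcnq5 spread widely.

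Kcna1 encodes Kv1.1, a subunit of the juxtaparanodal channel, and had the highest level of all members (chromosome 6, 126636463 to 126645801, GRCm38). It stood at 197.9, 176.3 and 156.6 CPM per kb in wildtype replicates 1, 2 and 3 and at 211.8, 202.0 and 218.6 CPM per kb in knockout replicates 1, 2 and 3. All knockout libraries were above all wildtype libraries, by a small margin. Kcna1 was the 1 member of the 36 tested whose genotypes did not overlap in this direction, against 5.42% of all genes tested, and no member was lower in knockout without overlap, against 4.93% (10.3% in either direction). Its log2 fold change was 0.25 (SE 0.16) with adjusted p = 0.9996 in edgeR, so the difference did not pass the test.

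Kcna2 encodes Kv1.2, the partner of Kv1.1 (chromosome 3, 107090883 to 107115005). It stood at 99.45, 60.7 and 49.8 CPM per kb in wildtype replicates 1, 2 and 3 and at 103.2, 63.1 and 65.6 CPM per kb in knockout replicates 1, 2 and 3. The replicate 1 library was the highest of each genotype, and the genotypes overlapped. Together Kcna1 and Kcna2 held 95.9% to 97.1% of the Kcna sum, with Kcna1 at 1.99 to 3.33 times the level of Kcna2.

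The other Kcna genes were far lower. Kcna6, a neuronal subunit, stood at 1.84 to 7.01 CPM per kb by library. Of its exon bases 39.6% overlap Gm26673 on the opposite strand, and since the use of strand in counting is not given in the sources used here, reads of the pair cannot be told apart. Kcna10, which encodes Kv1.8, known from vestibular hair cells, stood at 2.87 to 5.06 CPM per kb. Kcna3, Kcna4, Kcna5 and Kcna7 averaged under 1 CPM per kb. Kcna3, Kcna2 and Kcna10 are neighbours on chromosome 3 (107036162 to 107195721), yet wildtype replicate 1 was the highest library for Kcna3 and the lowest for Kcna10.

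Kcnc1 encodes Kv3.1, a fast channel of neurons that fire at high rates (chromosome 7, 46396219 to 46438706). It stood at 53.9, 42.5 and 23.5 CPM per kb in wildtype replicates 1, 2 and 3 and at 43.4, 42.7 and 49.6 CPM per kb in knockout replicates 1, 2 and 3. Wildtype replicate 1 was highest and wildtype replicate 3 lowest, and the knockout libraries lay between them. Kcnc4, an A-type member, stood at 1.62 to 3.26 CPM per kb.

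Kcnh2, the erg channel Kv11.1 (chromosome 5, 24319589 to 24351684), held 91.5% of the Kcnh level averaged over the libraries. It stood at 42.7, 31.0 and 18.3 CPM per kb in wildtype replicates 1, 2 and 3 and at 31.7, 35.3 and 35.6 CPM per kb in knockout replicates 1, 2 and 3. Wildtype replicate 3 was the lowest library again. Kcnh5, an eag channel, stood at 0.622 to 3.96 CPM per kb, and the other Kcnh genes averaged under 1 CPM per kb.

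Among the silent subunits the Kcns genes led. Kcns1, encoding Kv9.1 (chromosome 2, 164163619 to 164171113), stood at 32.3, 28.2 and 11.13 CPM per kb in wildtype replicates 1, 2 and 3 and at 24.0, 32.2 and 32.7 CPM per kb in knockout replicates 1, 2 and 3. Kcns3, encoding Kv9.3, stood at 7.99, 8.48 and 7.67 CPM per kb in wildtype and at 7.92, 8.78 and 11.4 CPM per kb in knockout. Wildtype replicate 3 was lowest for both, while the highest library of Kcns3 was only 1.49-fold over its lowest.

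Kcnb channels, which these silent subunits join, include Kv2.2, encoded by Kcnb2. Kcnb2 stood at 0.116 to 1.92 CPM per kb, below Kcns1 in each library. Kcng4 stood at 0.561, 0.751 and 0.941 CPM per kb in wildtype and at 0.246, 0.626 and 0.329 CPM per kb in knockout. Kcnf1 stood at 0.0576, 0.0837 and 0.423 CPM per kb in wildtype and at 0.146, 0.290 and 0.271 CPM per kb in knockout. Both were highest in wildtype replicate 3. Kcnv2, the higher of the Kcnv genes, was counted 1, 6 and 1 times in wildtype and 4, 1 and 0 times in knockout, too few for a comparison.

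Among the Kcnd genes, which encode A-type channels, Kcnd1 had the highest mean level. It stood at 2.68, 1.43 and 0.951 CPM per kb in wildtype replicates 1, 2 and 3 and at 2.74, 1.85 and 1.41 CPM per kb in knockout replicates 1, 2 and 3, with the replicate 1 library highest in each genotype.

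Most of the leading members were low in wildtype replicate 3. This library was the lowest of the 6 for 15 of the 36 tested members, against 28.6% of all genes tested, and these included Kcna1, Kcna2, Kcnc1, Kcnh2, Kcns1 and Kcns3. Neuron markers moved with them. The geometric mean of the 15 neuron markers was 307.4, 244.7 and 126.1 CPM in wildtype replicates 1, 2 and 3 and 231.7, 211.7 and 214.3 CPM in knockout replicates 1, 2 and 3. The ratio of the summed channel level to that mean was 1.98, 1.88 and 2.86 in wildtype and 2.40, 2.34 and 2.42 in knockout, so on that scale wildtype replicate 3 was the highest library. The part of the neuron markers in the channel levels was not tested.

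Another group of members was high in the replicate 1 library of both genotypes. For 7 of the 36 tested members, among them Kcna3, Kcnb2, Kcnc2, Kcnd3, Kcnh7 and Kcnq5, both replicate 1 libraries were at least 2-fold above each of the other 4, against 0.61% of all genes tested. With no minimum fold, the replicate 1 libraries were the highest pair for 15 of the 36, against 15.9% of all genes tested, and the lowest pair for 0, against 17.0%. The replicate numbers are those of the sample titles. The names of the count columns number the knockout libraries 1, 3 and 4 instead, so that number 1 is the same library in both. Nothing in the labels says that an equal number marks a shared day or litter. The group was chosen on these values, which are given as a description with no test.

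Promoter windows of Kcnd3 and Kcnh7, from the replicate 1 group, are shown beside those of the leading genes Kcna2 and Kcnc1, so that genes with different patterns over the libraries can be read side by side. Each is the 250 bases before a RefSeq transcript start on GRCm38.p6, 5′ to 3′ on the gene's strand, with GGGCGG, the GC box, or its reverse complement CCGCCC in capitals. They lie at chr3:107101317-107101566 (Kcna2, plus strand), chr7:46396218-46396467 (Kcnc1, plus strand), chr3:105451640-105451889 (Kcnd3, plus strand) and chr2:63184288-63184537 (Kcnh7, minus strand). The Kcna2 window, and all but the first base of the Kcnc1 window, lie inside the gene spans given above, before a transcript start within the gene. The Kcnd3 and Kcnh7 windows directly precede the whole gene.
Kcna2: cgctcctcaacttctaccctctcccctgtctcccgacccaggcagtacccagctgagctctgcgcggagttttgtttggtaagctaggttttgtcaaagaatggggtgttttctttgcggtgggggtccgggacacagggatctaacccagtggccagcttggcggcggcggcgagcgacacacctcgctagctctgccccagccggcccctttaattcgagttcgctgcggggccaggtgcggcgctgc
Kcnc1: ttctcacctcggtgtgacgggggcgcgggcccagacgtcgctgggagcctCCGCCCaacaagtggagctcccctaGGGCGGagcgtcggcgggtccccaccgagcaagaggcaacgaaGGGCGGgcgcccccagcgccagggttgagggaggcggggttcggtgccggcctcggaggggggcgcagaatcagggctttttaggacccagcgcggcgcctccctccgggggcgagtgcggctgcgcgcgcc
Kcnd3: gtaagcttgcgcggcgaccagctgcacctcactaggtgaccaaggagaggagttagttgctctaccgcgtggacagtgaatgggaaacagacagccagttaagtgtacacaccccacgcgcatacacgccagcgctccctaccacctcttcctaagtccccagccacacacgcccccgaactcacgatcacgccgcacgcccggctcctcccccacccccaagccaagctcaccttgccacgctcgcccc
Kcnh7: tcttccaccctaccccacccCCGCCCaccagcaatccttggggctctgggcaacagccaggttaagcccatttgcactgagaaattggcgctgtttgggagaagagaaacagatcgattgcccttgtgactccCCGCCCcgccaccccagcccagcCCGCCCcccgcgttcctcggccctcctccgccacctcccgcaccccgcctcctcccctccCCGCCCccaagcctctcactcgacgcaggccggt
Kcnc1 held 3 GC boxes, Kcnh7 held 4, and Kcna2 and Kcnd3 held 0, so each pair has 1 window with the motif and 1 without. A window was found for 25 of the 40 members, with 30 windows in all. A GC box was in 17 of these 30 windows (56.7%), against 32.7% of all 32851 windows of this length. A match describes the letters of a window and is no measurement of binding.

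Kcnq5, a subunit of the M current, had the widest range of the replicate 1 group, with its highest library 57.6-fold over its lowest. It was counted 2674, 645 and 52 times in wildtype replicates 1, 2 and 3 and 1832, 60 and 48 times in knockout replicates 1, 2 and 3. Kcnc2, encoding Kv3.2, stood at 14.4, 4.33 and 0.833 CPM per kb in wildtype and at 12.12, 0.833 and 0.434 CPM per kb in knockout. For both genes wildtype replicate 2 came next after the replicate 1 libraries.

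Kcnd3, Kcnh7, Kcnb2 and Kcna3 were also high in both replicate 1 libraries. In CPM, wildtype replicate 2 came next for Kcnd3, and wildtype replicate 3 came next for Kcnh7, Kcnb2 and Kcna3. Kcnd3, the A-type channel Kv4.3, was counted 2800, 1211 and 355 times in wildtype replicates 1, 2 and 3 and 2513, 396 and 270 times in knockout replicates 1, 2 and 3. Kcnh7, the erg channel Kv11.3, was counted 836, 83 and 127 times in wildtype and 995, 26 and 47 times in knockout. Its lower replicate 1 library was 6.75-fold above the highest of the other libraries in CPM, more than for any other gene of the group. Kcnb2, encoding Kv2.2, was counted 1242, 208 and 340 times in wildtype and 2204, 162 and 225 times in knockout. Kcna3, encoding Kv1.3, was counted 134, 6 and 33 times in wildtype and 93, 6 and 4 times in knockout. For Kcnb2 the knockout replicate 1 library was the highest, and for Kcna3 and Kcnd3 the wildtype one.

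**Figure D3:**
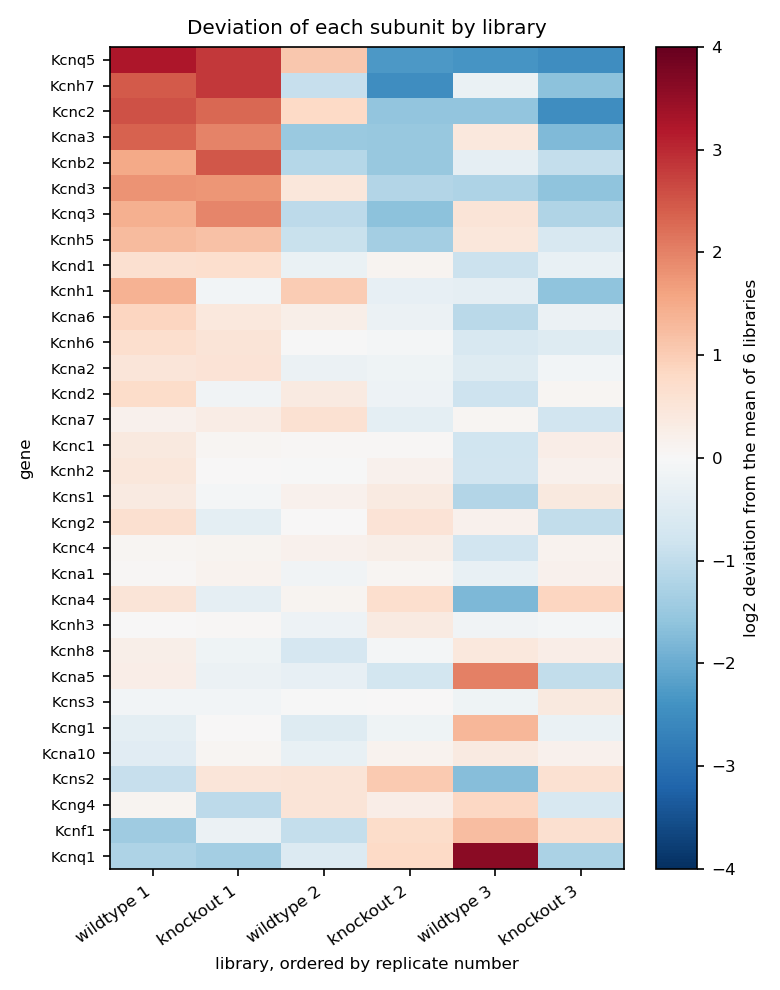
Log2 deviation of 32 of the 36 tested subunits (rows) from its own mean over the 6 libraries (columns), computed from log2 of CPM plus 0.05. The replicate 1 group is high in both replicate 1 libraries (medians over its 7 genes 2.39 in wildtype and 2.29 in knockout), and Kcnq1 is high in wildtype replicate 3 (3.61).

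Together the 7 genes held 6.65%, 2.31% and 1.23% of the summed channel level in wildtype replicates 1, 2 and 3 and 5.89%, 0.451% and 0.338% in knockout replicates 1, 2 and 3. They come from 6 subfamilies. The genes differ in size: their genomic span had a median of 222.1 kb, against 27.6 kb for the other 29 tested members. The shortest of all, Kcna3 (1.97 kb), was in the group, and Kcnd2 (514.5 kb) was not. The part of gene span in the pattern was not tested. Of the 15 neuron markers, Syt1, the calcium sensor of synaptic vesicle release, showed the same pattern, with 97.4, 26.5 and 7.58 CPM in wildtype and 83.6, 7.41 and 8.81 CPM in knockout. The summed level of 10 central neuron markers was 290.9, 195.9 and 107.3 CPM in wildtype and 255.0, 139.8 and 133.9 CPM in knockout, most of it from Slc17a6, a glutamate transporter. The 2-fold rule of the replicate 1 group was met by 0 of the 10. Cbln1, Cbln3 and Gad1 of that list were highest in wildtype replicate 2 (15.4, 3.67 and 2.18 CPM), so the sum follows mainly 1 gene. Slc32a1, Slc6a5, Gabra6 and Neurod6 of that list were at 0 in at least 1 library. The part of such markers in the pattern was not tested.

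Kcnq1 followed another library. It encodes Kv7.1, the potassium channel of strial marginal cells (chromosome 7, 143106877 to 143427050), and was counted 352, 620 and 10506 times in wildtype replicates 1, 2 and 3 and 291, 1602 and 355 times in knockout replicates 1, 2 and 3. Wildtype replicate 3 was 17.8-fold above the next wildtype library in CPM and 7.08-fold above knockout replicate 2, the highest of all the others. Kcnq1 made up 3.997% to 84.7% of the Kcnq sum by library. With Kcnq1 left out, the Kcnq share of the summed level was 4.08%, 1.61% and 1.64% in wildtype and 3.89%, 0.831% and 0.799% in knockout.

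Stria vascularis and dark cell markers ranked these libraries in a like order. Kcne1, the auxiliary subunit of Kcnq1, stood at 0.492, 8.42 and 286.8 CPM in wildtype replicates 1, 2 and 3 and at 0.264, 55.2 and 1.01 CPM in knockout replicates 1, 2 and 3. Dct, an enzyme of melanin synthesis found in strial intermediate cells, stood at 1.12, 36.8 and 1266 CPM in wildtype and at 0.962, 206.1 and 4.92 CPM in knockout. The whole list of 10 summed to 868.1, 1130 and 8054 CPM in wildtype and to 883.6, 1969 and 856.2 CPM in knockout, and none of its genes was at 0 in any library. Wildtype replicate 3 was highest for 9 of them, with knockout replicate 2 next in the sum. The part of strial tissue or dark cells in the Kcnq1 level was not tested. Kcnq1ot1, which overlaps Kcnq1 on the opposite strand over 2.96% of its exon bases, stood at 13.6, 12.8 and 7.67 CPM in wildtype and at 22.1, 14.4 and 13.5 CPM in knockout, lowest where Kcnq1 was highest.

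**Figure D4:**
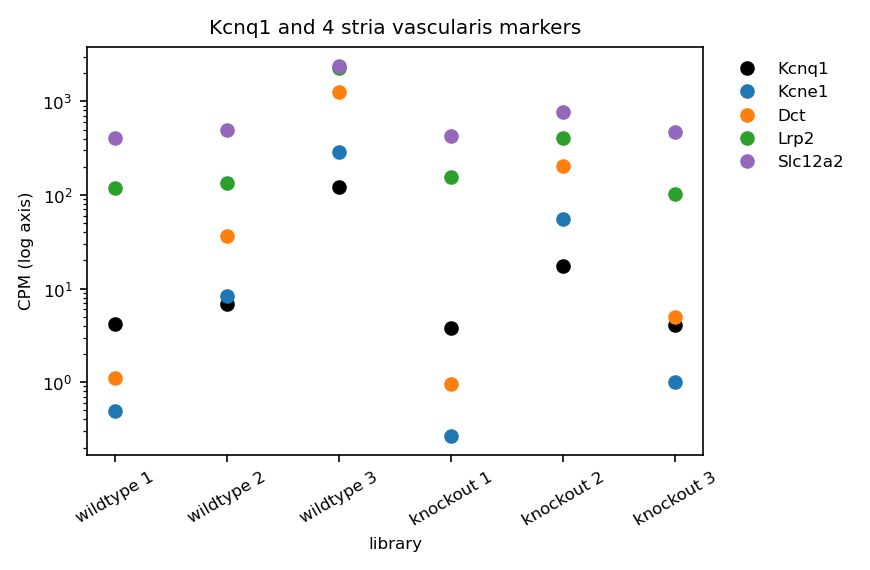
Kcnq1 and 4 stria vascularis markers (Kcne1, Dct, Lrp2 and Slc12a2) in each of the 6 libraries (CPM, log axis), with 1 point per gene and library. All 5 genes are highest in wildtype replicate 3 and next in knockout replicate 2.

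Kcna5, a subunit known from heart and vascular muscle, was also highest in wildtype replicate 3. It was counted 114, 81 and 407 times in wildtype replicates 1, 2 and 3 and 73, 61 and 47 times in knockout replicates 1, 2 and 3. In all, wildtype replicate 3 was the highest library for 7 of the 36 tested members, against 26.0% of all genes tested. Smooth muscle and pericyte markers summed to 371.1, 326.0 and 461.9 CPM in wildtype and to 380.7, 282.4 and 337.4 CPM in knockout, also highest in that library, and their part in the Kcna5 level was not tested.

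Over the 6 libraries of both genotypes the spread was wide for many members. The highest library was at least 8-fold over the lowest for 12 of the 36 tested members, against 6.13% of all genes tested, and less than 2-fold over it for 4 of the 36, against 62.0%. The 4 steady genes were Kcna1, Kcna10, Kcnh3 and Kcns3, of which Kcnh3 had 13 to 22 counts by library.

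The study compared auditory nerve with and without normal Vcan, and no channel subunit passed the test for a difference. In edgeR 0 of the 36 members had an adjusted p under 0.05, against 0.138% of all genes tested (0.0658% higher and 0.0718% lower in knockout), and 1 member, Kcna5, had an unadjusted p under 0.05, against 5.2%. DESeq2 called 0 of 36 after adjustment, against 1.39% of all genes, and 3 of 38 before it (Kcna5, Kcng4 and Kcnh1), against 5.88%. These 36 are not the same genes as in edgeR. DESeq2 gave Kcnq1 and Kcnh7 no p-value and Kcng3 and Kcnv1 no adjusted p-value, while it tested Kcnh4 and Kcnv2, which edgeR did not. Of the 33 members with an adjusted p in the authors' deposited table, 0 were under 0.05, against 1.34% of all genes, and the same 3 genes were under it before adjustment, against 5.49%. Kcnq1, Kcnh7 and Kcnb2 had no p-value in that table, so it holds no test of them. Of the 36 members, 17 had a log2 fold change above 0, against 48.9% of all genes tested, and the median was −0.03 for the members and −0.01 for all genes tested. The members' shares of calls after adjustment and of values above 0 lay near those of the whole table.

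Of the leading genes, Kcna2, Kcnc1, Kcnh2 and Kcns1 each had a fold change smaller than its standard error. In edgeR the log2 fold change, knockout over wildtype, was 0.14 (SE 0.32) for Kcna2 and 0.18 (SE 0.30) for Kcnc1. It was 0.16 (SE 0.29) for Kcnh2 and 0.31 (SE 0.38) for Kcns1. Leaving out wildtype replicate 3 turned each of these 4 values negative. The members with wide library spread had wide errors, such as −2.40 (SE 1.35) for Kcnq1, −0.55 (SE 1.39) for Kcnc2 and −0.65 (SE 1.701) for Kcnq5. Without wildtype replicate 3 the Kcnq1 value was 0.59. Without both replicate 1 libraries the values were −2.03 for Kcnc2 and −2.69 for Kcnq5, neither past the adjusted threshold in edgeR. Of the rest of the replicate 1 group, Kcnd3 was at −0.34 (SE 1.06), Kcnb2 at 0.66 (SE 1.18) and Kcnh7 at 0.16 (SE 1.51), and without these libraries at −1.25, −0.54 and −1.55.

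Among the lower members, the log2 fold change of Kcna5 was −1.696 (SE 0.67), with adjusted p = 0.882 in edgeR and 0.276 in DESeq2, and adjusted p = 0.300 in the authors' deposited table. Without wildtype replicate 3 it was −0.66. Kcng4 was at −0.91 (SE 0.42) and Kcnh1, an eag channel, at −1.49 (SE 0.63), neither past the adjusted threshold in edgeR. Kcns3 was at 0.22 (SE 0.17) and Kcnd1 at 0.25 (SE 0.43), both within 2 errors of 0. Marker lists of other cells leaned in different directions with genotype. A log2 fold change above 0 was found for 12 of 14 spiral ganglion neuron markers (median 0.24) and 9 of 15 neuron markers. It was found for 5 of 9 lymphocyte and 4 of 10 Schwann cell markers. Over all genes tested, 8544 of 16722 were below 0. A log2 fold change below 0 was found for 10 of 10 astrocyte markers (median −0.66), 11 of 12 oligodendrocyte markers (median −0.46) and 9 of 9 skeletal muscle markers (median −1.05). The same held for 9 of 10 stria vascularis markers (median −1.36) and 10 of 11 hair cell markers (median −0.44). In these last lists wildtype replicate 3 was the highest library for 9 of the 10 and 10 of the 11. Also below 0 were 8 of 10 smooth muscle and pericyte, 9 of 11 macrophage and microglia and 5 of 6 central neuron markers. In the astrocyte, oligodendrocyte, skeletal muscle, stria vascularis and hair cell lists edgeR called 0 after adjustment, against 0.138% of all genes tested. In the same lists DESeq2 called 1, against 1.39% of all genes. It was Aqp4 of astrocytes, with a log2 fold change of −1.49 and adjusted p = 0.381 in edgeR and adjusted p = 0.00352 in DESeq2. The part of these cell types in the channel values was not tested.

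**Figure D5:**
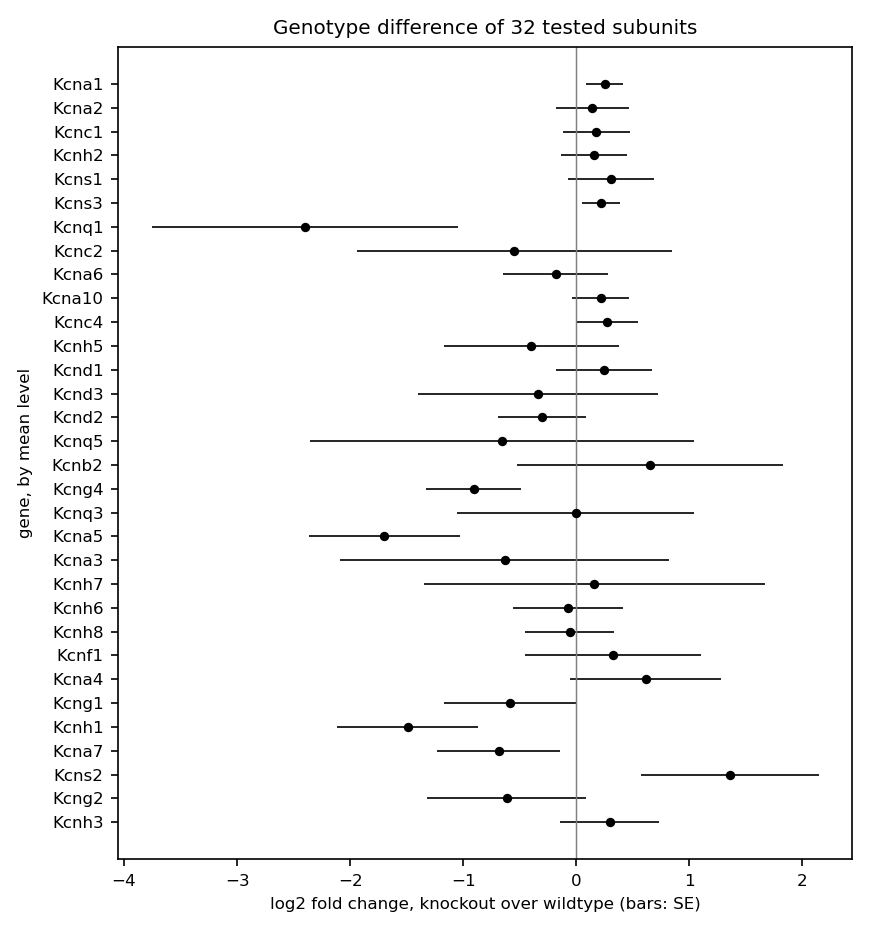
Log2 fold change, knockout over wildtype, of 32 of the 36 tested subunits (points) with its standard error (bars), from edgeR, ordered by mean level. The leading genes lie close to 0, and Kcnq1 (−2.40) and Kcna5 (−1.696) lie farthest below it, with none past the adjusted threshold.

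The summed level and the make-up by subfamily were also compared between genotypes. The summed level was 609.2, 460.5 and 360.5 CPM per kb in wildtype replicates 1, 2 and 3 and 555.5, 495.7 and 518.9 CPM per kb in knockout replicates 1, 2 and 3. The knockout libraries lay inside the wildtype range, and the log2 difference was 0.17 (exact permutation p = 0.6, 2-sided, where 3 against 3 libraries cannot go below 0.1). Without wildtype replicate 3 that difference was −0.0188, and without both replicate 1 libraries it was 0.316. The Kcna share was 2.12 percentage points higher in knockout (exact permutation p = 0.5) and the Kcnq share was lower, a difference of −3.11 points (exact permutation p = 0.2). Without Kcnq1 these were 0.446 and −0.603 points, without wildtype replicate 3 they were 4.69 and −0.863, and without both replicate 1 libraries they were −0.766 and −4.57. The differences for Kcnc, Kcns and Kcnh were 0.197, 0.915 and 0.0982 points. Adjusted over the 10 subfamilies compared, every exact permutation p was 1.0.

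Auxiliary subunits, which attach to the pore-forming subunits and shape their gating or traffic, were compared as CPM within each gene. Of 15 tested, 0 were called by edgeR (0.138% of all genes tested) or by DESeq2 (1.39%), and 2 had an unadjusted p under 0.05 in edgeR (5.2%). A log2 fold change above 0 was found for 11 of them (48.9% of all genes tested), with a median of 0.06 against −0.01 for all genes. Kcnab2, a beta subunit of Kcna channels, stood at 793.9, 648.2 and 327.8 CPM in wildtype replicates 1, 2 and 3 and at 517.5, 659.7 and 669.2 CPM in knockout replicates 1, 2 and 3. Its lowest library was wildtype replicate 3, as for the leading channels. Kcnab3, another beta subunit, stood at 102.5, 117.7 and 66.9 CPM in wildtype and at 124.3, 193.0 and 197.8 CPM in knockout. The genotypes did not overlap for Kcnab3, as for 10.3% of all genes tested, and its adjusted p was 0.713 in edgeR and 0.193 in DESeq2, so it did not pass.

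Transcripts of proteins that hold Kcna channels at the juxtaparanode and build the axonal scaffold were measured as well. Of 12 tested, 0 were called by edgeR (0.138% of all genes tested) or DESeq2 (1.39%), and 0 had an unadjusted p under 0.05 in edgeR (5.2%). A log2 fold change above 0 was found for 9 (48.9% of all genes tested), with a median of 0.10. Cntnap2, the axonal Caspr2 that anchors Kv1 channels, stood at 121.5, 65.8 and 62.0 CPM in wildtype replicates 1, 2 and 3 and at 130.7, 69.1 and 69.2 CPM in knockout replicates 1, 2 and 3. The replicate 1 library was highest in each genotype, as it was for Kcna2 but not for Kcna1, whose highest knockout library was replicate 3. Both replicate 1 libraries were above the other 4 for 15.9% of all genes tested, so no link of anchor and channel is read from this. Ank2 had the highest mean of the 12 (969.3 CPM, against 86.4 CPM for Cntnap2).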

How the data were processed

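Auditory nerve RNA from 3 wildtype and 3 Vcan knockout mice was sequenced. Per the submitters' processing notes, HTSeq and DESeq2 were used with the mouse build mm10, with roles and versions not given. The authors deposited 1 table with a raw read count per gene and library, and the columns of their own comparison. Per the file headers, these are a base mean (a signal of normalized counts), a test score, a p-value, an adjusted p-value, and a log2 fold change beside an lfcSE column. From these deposited columns only p-values and adjusted p-values are used. No replicates were pooled in the count columns.

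From the counts, 5 symbols on 2 rows with identical counts were joined. The main test was edgeR 4.0.16 (quasi-likelihood F test, robust, TMM factors, low-count filter) over 16722 genes, with Benjamini-Hochberg adjustment over all of them and a threshold of 0.05. The standard error is the absolute log2 fold change divided by the square root of F. DESeq2 1.42.0 was an alternative. Levels are TMM-scaled CPM per kilobase of union exon (GENCODE vM21, GRCm38). Summed levels and shares were compared by 2-sided exact permutation over the 6 libraries. Total counts were 74530860 to 92513887. No pair of libraries agreed within sampling noise (lowest chi-square per degree of freedom 41.4). The p-values weigh the genotype difference against the spread between libraries, which joins animal, dissection and library preparation. The code was tested on simulated counts. Promoter windows are RefSeq sequences.

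Genes named with the value of every library were the 10 with the highest mean level, the highest of each subfamily, and members that passed a test or, at a mean of at least 1 CPM, did not overlap. Others, such as Kcnq5, Kcnd3, Kcnb2, Kcnh7, Kcna3 and Kcna5, were picked with their values in view. Values of 4 members are not reported here by name, though they enter every sum and count. The members and gene lists were chosen with earlier results of these data known. Alternatives were DESeq2, other scaling, no filter, no robust dispersion, a replicate block, no length division, and leaving out each library. Leaving out both replicate 1 libraries, and leaving out Kcnq1, were chosen after seeing the data.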

Additional observations from a re-analysis of the deposited data

How the results depend on the processing

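No member was called in any of the fits run, while the calls over all genes moved from 23 in edgeR to 252 in DESeq2, 3 with the replicate block, 3 to 14 with 1 library left out, and 1 without both replicate 1 libraries. Without knockout replicate 1, 8 of the 36 members had an unadjusted p under 0.05 in edgeR, among them Kcnc2, Kcnd3, Kcnh7 and Kcnq5. These named genes belong to the group chosen for high values in both replicate 1 libraries, and this fit keeps only the wildtype one. The share over all genes is not given for this fit, and no genotype difference is read from the count.

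The libraries were not treated as paired, since nothing in the labels ties equal numbers together. By the numbers of the titles, same-numbered libraries had correlations of their deviations of 0.43, 0.22 and −0.15 over 16722 genes, and not every library correlated best with its own number. By those of the count columns only numbers 1 and 3 are shared, with correlations of 0.43 and 0.21, and no block was fitted on them. The replicate block used the titles. With it the lowest adjusted p of a member in edgeR was 0.589 (Kcnh1), and the log2 fold changes of Kcnb2 and Kcnh7 were −0.01 and −0.88. Without both replicate 1 libraries these were −0.54 and −1.55, and the Kcna share difference was −0.766 points.

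With 1 library left out at a time, the log2 difference of the summed level ran from −0.0188 to 0.36. The share differences, in points, ran from 0.18 to 4.69 for Kcna, −3.29 to 2.04 for Kcnc, −0.443 to 0.585 for Kcnh, 0.222 to 1.8 for Kcns and −4.8 to −0.863 for Kcnq. Without Kcnq1 the differences were 0.446 for Kcna, −0.603 for Kcnq, −0.292 for Kcnc, −0.0634 for Kcnh and 0.776 for Kcns. With no division by length the mean shares of Kcnh and Kcns were 5.35% and 3.14%. Log2 fold changes in edgeR with 1 library left out ran from −0.12 to 0.48 for Kcna2, −1.69 to 1.82 for Kcnb2, −0.10 to 0.46 for Kcnc1, −3.36 to 0.79 for Kcnc2 and −0.05 to 0.75 for Kcnd1. They ran from −2.20 to 0.61 for Kcnd3, −0.10 to 1.73 for Kcnf1, −0.12 to 0.47 for Kcnh2, −3.32 to 1.94 for Kcnh7, −3.50 to 0.59 for Kcnq1, −4.46 to 1.11 for Kcnq5 and −0.04 to 0.59 for Kcns1. The ranges kept 1 sign for Kcna1, Kcna5, Kcng4, Kcnh1 and Kcns3. Where a sign turned, the cause was not tested beyond the library left out.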

Other observations

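Genes outside the channel family shared the replicate 1 pattern, and those named here were chosen after their values were seen. Both replicate 1 libraries were at least 2-fold above the other 4 for 102 of the 16722 genes tested, and Kcnc2 ranked 6 among them by mean CPM in the replicate 1 libraries. Chrnb3 and Chrna6, nicotinic acetylcholine receptor subunits, stood at 31.2 and 24.6 CPM in wildtype replicate 1 and at 32.6 and 21.8 CPM in knockout replicate 1. In wildtype replicate 2 they stood at 7.09 and 6.03 CPM, and in the other 3 libraries at 0.140 CPM or less. Unc13a, a vesicle priming protein, stood at 77.7, 32.0 and 25.3 CPM in wildtype replicates 1, 2 and 3 and at 71.2, 26.0 and 30.8 CPM in knockout replicates 1, 2 and 3.

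Other potassium channels were also measured. Of 30 tested, edgeR called 0, against 0.138% of all genes tested, with 1 at an unadjusted p under 0.05, against 5.2%. DESeq2 called 1, against 1.39% of all genes: Kcnk12, a tandem-pore domain channel. It stood at 0.564, 0.456 and 0.246 CPM in wildtype replicates 1, 2 and 3 and at 1.71, 1.51 and 1.38 CPM in knockout replicates 1, 2 and 3. All knockout libraries were above all wildtype libraries, as for 5.42% of all genes tested (10.3% did not overlap in either direction). The log2 fold change of Kcnk12 was 1.86, with adjusted p = 0.314 in edgeR and 0.00163 in DESeq2. Of the same list, Kcnj6 was also higher in knockout without overlap, and Kcnk6 and Kcnk10 were lower without overlap. Kcnj10, the inward rectifier of glia and strial intermediate cells, stood at 186.7, 199.9 and 492.2 CPM in wildtype and at 194.1, 167.9 and 124.6 CPM in knockout, highest in the library where Kcnq1 was highest.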
